A study of Mus musculus with 2 samples.

Results

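The genes described here are Ly6a, Anxa1, Clu, Ccn1, Ccn2, F3, Amotl1, Ankrd1 and Plat, 9 genes picked by symbol because they are used as markers of regenerating intestinal epithelium or of signalling through the co-activator YAP. All 9 were found among the 32285 genes of the data. They were measured in single cells by RNA sequencing of 3′ ends (10x Genomics, version v3 by the label) in colon tumours that had been raised in mice by AOM/DSS, the standard name of a protocol that pairs the mutagen azoxymethane with the colitis-inducing agent dextran sulphate sodium. One library is labelled Gsk3b IEC+/+ (Gsk3b kept in the intestinal epithelium, here the WT library) and one Gsk3b IEC-/- (here the KO library), and both received AOM/DSS. Strain, age, the number of animals behind each library, the Cre driver and the deleted part of Gsk3b are details not given in the sources used here. With 1 library for each genotype, the genotype and the library cannot be told apart, no test between genotypes was possible, and every interval below is a 95% interval that covers counting error only.

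Each gene was counted in unique molecular identifiers (UMIs, tags that count each captured RNA molecule once), and its level is its share of all UMIs of the same cells on the usual CPM scale. Epithelial cells were cells of epithelial clusters with 5000 or more UMIs and 1 or more UMI of Epcam, the epithelial adhesion molecule. These were 3495 WT cells with 97646199 UMIs and 3500 KO cells with 91423427 UMIs, with medians of 23073 and 21581.5 UMIs per cell. Free RNA, estimated from the immunoglobulin UMIs found in epithelial cells, made up 9.21% of the UMIs of WT and 14.9% of those of KO epithelial cells. This estimate takes all of those immunoglobulin UMIs as free RNA, which was not tested. At a finer clustering an epithelial cluster led by Igkc and Jchain held 16 WT and 128 KO cells. The shares, and their gap between libraries, may therefore be too high. Droplets with no cell (barcodes under 100 UMIs) held 8962980 UMIs (WT) and 9190303 UMIs (KO) and give the level of each gene in free RNA. The libraries shared 35 cell barcodes.

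As background, YAP and its paralogue TAZ are co-activators that bind TEAD transcription factors and turn on genes such as Ccn1, Ccn2, Ankrd1 and Amotl1 when the kinases of the Hippo pathway, LATS and MST, are inactive. In the intestine, injury of the kind that dextran sulphate sodium causes brings on a repair programme that depends on YAP and resembles fetal epithelium. Its markers include Ly6a (Sca-1, a GPI-anchored surface protein), Anxa1 (annexin A1, a calcium-dependent phospholipid-binding protein) and Clu (clusterin, a secreted chaperone that marks revival stem cells). Ccn1 and Ccn2 encode secreted matricellular proteins, Ankrd1 a nuclear and sarcomeric ankyrin-repeat protein, and Amotl1 an angiomotin family member that binds YAP. F3 is tissue factor, the receptor that starts the coagulation cascade, and Plat is tissue plasminogen activator, the protease that turns plasminogen into plasmin.

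By GENCODE vM21 (GRCm38, the assembly behind the mm10 build that the submitters name), all 9 are protein-coding genes, and they lie on 7 chromosomes. Ly6a is on chromosome 15 (74994877 to 74998031, minus strand), Anxa1 on chromosome 19 (20373428 to 20390944, minus) and Clu on chromosome 14 (65968483 to 65981547, plus). Ccn1 is on chromosome 3 (145646976 to 145649981, minus), Ccn2 on chromosome 10 (24595442 to 24598683, plus), Amotl1 on chromosome 9 (14541966 to 14645056, minus) and Ankrd1 on chromosome 19 (36111961 to 36120099, minus). F3 is on chromosome 3 (121723537 to 121735048, plus) and Plat on chromosome 8 (22757727 to 22782844, plus). Amotl1 overlaps 4930584E12Rik on its own strand and Gm34263 on the other, Anxa1 overlaps 1500015L24Rik and Ccn2 overlaps Gm15270 on the other strand, and how reads shared with these genes, or with near copies of Ly6a in its family, were counted was not given in the sources used here.

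RefSeq promoter windows were at hand for 5 of the 9 genes, Anxa1, Ccn1, F3, Amotl1 and Ankrd1. The 250 bases before the transcription start (GRCm38.p6, 5′ to 3′ on the strand of the gene) are shown for the 4 that held one of the motifs searched. Capitals mark GGAATG on either strand, the core of the TEAD motif (CATTCC where it lies on the other strand), and TGANTCA, the AP-1 motif, which is its own reverse complement; the motifs do not overlap each other.
Anxa1, chr19:20390672-20390921, minus strand: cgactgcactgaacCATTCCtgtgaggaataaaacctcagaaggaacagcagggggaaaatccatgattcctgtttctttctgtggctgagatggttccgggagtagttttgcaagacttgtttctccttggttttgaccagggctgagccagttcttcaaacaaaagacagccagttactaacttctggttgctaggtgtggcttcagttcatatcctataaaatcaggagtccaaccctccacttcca
Ccn1, chr3:145649986-145650235, minus strand: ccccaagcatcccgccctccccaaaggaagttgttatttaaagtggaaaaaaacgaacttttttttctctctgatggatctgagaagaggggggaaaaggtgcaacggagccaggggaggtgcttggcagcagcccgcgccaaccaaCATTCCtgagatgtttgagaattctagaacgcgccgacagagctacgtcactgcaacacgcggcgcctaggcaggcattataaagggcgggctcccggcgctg
Ankrd1, chr19:36119845-36120094, minus strand: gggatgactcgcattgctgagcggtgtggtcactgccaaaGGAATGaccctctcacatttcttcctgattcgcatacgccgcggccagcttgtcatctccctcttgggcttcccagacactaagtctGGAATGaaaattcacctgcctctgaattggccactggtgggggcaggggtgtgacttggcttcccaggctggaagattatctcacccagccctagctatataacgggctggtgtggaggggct
F3, chr3:121723287-121723536, plus strand: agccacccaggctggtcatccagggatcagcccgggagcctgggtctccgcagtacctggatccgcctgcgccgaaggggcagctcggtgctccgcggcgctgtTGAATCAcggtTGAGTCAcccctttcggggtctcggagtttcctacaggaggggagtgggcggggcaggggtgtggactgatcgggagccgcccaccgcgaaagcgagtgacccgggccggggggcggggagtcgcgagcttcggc
Ankrd1 held 2 copies of GGAATG, which began 210 and 123 bases before the start. Anxa1 and Ccn1 held 1 copy each on the other strand, beginning 236 and 103 bases before it. F3 held 2 AP-1 matches, 146 and 135 bases before the start, and no GGAATG. Amotl1 held neither motif in its window. That window (chr9:14615001-14615250, minus strand) lies inside the gene span given above, whose 5′ end is at 14645056. The bases before that end were not searched. Of all 32851 promoter windows of this length, 12.6% held GGAATG on either strand and 6.75% held TGANTCA. A match of letters is a description of the window and was not tested as a binding site.

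Over all epithelial cells, F3 was higher and Plat lower in KO, while the 3 regenerative markers and Ccn1 were close. Amotl1 and Ankrd1, on far fewer UMIs, were also lower in KO beyond 1.5-fold. The level of F3 was 125 CPM (12213 UMIs) in WT and 244 CPM (22347 UMIs) in KO, a log2 ratio of KO over WT of 0.97 (interval 0.93 to 1.0). Plat stood at 323 CPM (31580 UMIs) in WT and 120 CPM (10958 UMIs) in KO, a log2 ratio of −1.43 (−1.46 to −1.40). Tissue factor and the plasminogen activator therefore differed in opposite directions.

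Of the 3 regenerative markers, Ly6a had 596 CPM in WT and 464 CPM in KO, a log2 ratio of −0.36 (−0.38 to −0.34). Anxa1 was measured at 466 and 444 CPM, a log2 ratio of −0.07 (−0.09 to −0.05). For Clu the levels were 367 and 382 CPM, a log2 ratio of 0.06 (0.04 to 0.08). None of the 3 reached a 1.5-fold difference over the epithelium as a whole.

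Among the genes named above as turned on by YAP and TAZ, Ccn1 was level, at 270 and 263 CPM (log2 ratio −0.03, −0.06 to −0.01). The other 3 had far fewer UMIs. Amotl1 had 1396 UMIs in WT and 718 in KO (14.3 and 7.85 CPM), a log2 ratio of −0.86 (−1.0 to −0.73). Ankrd1 had 314 and 176 UMIs (3.22 and 1.93 CPM), a log2 ratio of −0.74 (−1.01 to −0.47). Ccn2 had 311 and 410 UMIs (3.18 and 4.48 CPM), a log2 ratio of 0.49 (0.28 to 0.71). Of Ccn1, Amotl1, Ankrd1 and Ccn2, 2 were thus lower in KO, 1 was level and Ccn2 was higher by less than 1.5-fold. F3, another gene of the regenerative and YAP-linked set, is not part of this count and was higher in KO beyond 1.5-fold.

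A gene was counted as different between the libraries where its CPM differed by more than 1.5-fold and it had 20 or more UMIs over both. By this count 4 of the 9 genes differed, F3 higher in KO and Amotl1, Ankrd1 and Plat lower. Of all 18439 genes with 20 or more UMIs in epithelial cells, 18.3% differed, 6.99% higher and 11.3% lower in KO, with a median log2 ratio of −0.06. Ankrd1 was within 1.5-fold by the mean over cells (log2 ratio −0.17), without cells that held a Ptprc UMI (−0.32) and with the same state weights in both libraries (−0.53). The 10 cells with most Ankrd1 held 47.8% of its WT UMIs and 65.3% of its KO UMIs. The top 10 cells for Ccn2 held 24.4% and 27.1% of its UMIs, and the top 10 for Amotl1 held 6.88% and 10.7% of its UMIs.

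To compare shares of cells at one depth, each epithelial cell was thinned at random to 5000 UMIs. F3 was then detected in 31.3% of WT cells (29.7% to 32.8%, Clopper-Pearson interval) and 50.4% of KO cells (48.7% to 52.1%). Plat was detected in 46.8% (45.1% to 48.5%) and 25% (23.5% to 26.4%). The shares of the 3 regenerative markers and Ccn1 lay between 50.8% and 62.4% in both libraries. Amotl1 was detected in 5.58% and 3.57% of cells, Ccn2 in 1.49% and 1.51%, and Ankrd1 in 0.801% and 0.457%. Without thinning, F3 was detected in 61.2% and 77.6% of cells and Plat in 73.0% and 48.3%.

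**Figure D1:**
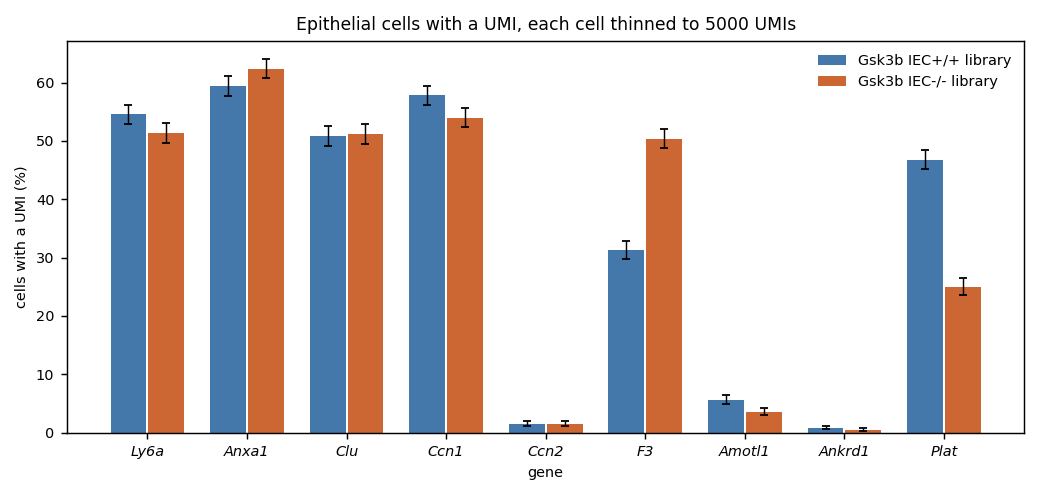
Share of epithelial cells with 1 or more UMI of each gene (y axis, percent) after each cell was thinned to 5000 UMIs, for 3495 WT (blue) and 3500 KO cells (orange); bars show the share and whiskers its Clopper-Pearson 95% interval. F3 goes from 31.3% in WT to 50.4% in KO and Plat from 46.8% to 25%, while Ccn2 and Ankrd1 stay under 2% in both.

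Clustering of these cells without the 9 genes and without the gene lists named further on gave 13 states, which are called here by their leading genes. The states led by Fstl4, Clstn2, Krt17, Cadps and Pnliprp2 each carried all 7 of 7 Wnt-high tumour markers (such as Notum, Nkd1 and Lef1). The Ube2c state was cycling and also carried all 7 Wnt-high tumour markers, while the Lyz1 and Chgb states carried 5 of these 7. The Gsdmc2 and Saa1 states carried 8 of 12 absorptive colonocyte markers each, the Lyz1 state all 7 Paneth-like markers and the Zg16 state all 7 goblet markers. The Muc3 state (99 WT and 355 KO cells) was left unnamed, since its leading genes and its marker score disagreed. The Cadps state held 564 WT and 18 KO cells, the enteroendocrine Chgb state 16 and 26, and a state led by Ppbp and Psca 0 and 11, so that 10 states had 50 or more cells in both libraries and could be compared. Of all genes with 20 or more UMIs in a state, those higher in KO beyond 1.5-fold were 4.85% in the Fstl4, 6.09% in the Clstn2, 5.89% in the Krt17, 6.24% in the Ube2c, 4.74% in the Gsdmc2, 8.72% in the Muc3, 6.17% in the Pnliprp2, 9.2% in the Saa1, 6.05% in the Lyz1 and 6.54% in the Zg16 state. Those lower in KO were, in the same order, 8.16%, 7.23%, 7.25%, 7.89%, 14.9%, 10.9%, 9.01%, 7.87%, 9.38% and 14.9%.

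Ly6a was highest in the Saa1 state, in which surface colonocyte genes lead, and not in any of the tumour-marker states. Its level there was 4566 CPM in WT and 2225 CPM in KO, followed by the Gsdmc2 state with 1190 and 1161 CPM. It was lowest in the Pnliprp2 state, at 97.3 and 72.7 CPM, so the highest state stood 46.9-fold above the lowest in WT and 30.6-fold in KO. The Saa1 state held 5.38% of WT epithelial cells and 43.7% of their Ly6a UMIs, and 6.69% of KO cells with 29.6% of theirs.

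Between these ends the WT order of Ly6a was the Ube2c state (442 CPM), then Fstl4 (423), Zg16 (342), Muc3 (278), Krt17 (218), Lyz1 (209), Cadps (108) and Clstn2 (99.5). The counting intervals of Ube2c and Fstl4 overlapped, as did those of Krt17 and Lyz1 and those of the lowest states, Cadps, Clstn2 and Pnliprp2. In KO the Muc3 state (372 CPM) followed the Gsdmc2 state. The difference between libraries was largest in the Saa1 state, with a log2 ratio of −1.04 (−1.07 to −1.01), the only one of 10 beyond 1.5-fold; Ly6a was higher in KO in 3 states and lower in 7. Thinned cells with a Ly6a UMI made up 98.4% of WT and 92.3% of KO cells in that state.

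Anxa1 shared the upper end of this order, with 1535 and 1195 CPM in the Saa1 state and 900 and 764 CPM in the Gsdmc2 state. It was also well represented in the Fstl4 state (572 and 476 CPM) and, unlike Ly6a, in the Krt17 state (565 and 460 CPM). Its lowest WT level was in the Lyz1 state (132 CPM) and its lowest KO level in the Clstn2 state (159 CPM). One state differed beyond 1.5-fold, the Pnliprp2 state, with 315 CPM in WT and 166 CPM in KO (log2 ratio −0.93, −1.05 to −0.80). The 11 KO cells of the Ppbp state carried 1920 Anxa1 UMIs (12999.9 CPM), which is 4.73% of all KO Anxa1 UMIs, and without them its epithelial log2 ratio was −0.14.

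Clu had its high levels in states of different kinds, the tumour-marker Krt17 state (892 CPM in WT and 1008 CPM in KO) and the absorptive Saa1 state (976 and 807 CPM). In KO the Krt17 and Gsdmc2 states led, with overlapping intervals. The Zg16 goblet state was lowest in both libraries. The place of the highest level depended on the clustering: at the finer resolution 1, WT Clu was highest in cells outside the Saa1 state. At that resolution a state led by Ly6g6c and Tm4sf1 (91 WT and 116 KO cells) had Clu among its leading genes. It carried all 7 Wnt-high tumour markers. In the Gsdmc2 state, Clu had 436 CPM in WT and 992 CPM in KO, a log2 ratio of 1.19 (1.13 to 1.24), and thinned cells with a UMI went from 51.0% to 72.8%. In the Clstn2 state it had 221 and 328 CPM (log2 ratio 0.57), and in the Lyz1 state 101 and 153 CPM (0.59). The Muc3 and Zg16 states went the other way, at 157 and 100 CPM (−0.64, −0.83 to −0.45) and at 62.8 and 41.4 CPM (−0.60, −0.97 to −0.22). Clu was thus higher in KO in 5 states and lower in 5, beyond 1.5-fold in 2 each way, and its near-equal total hid differences in both directions.

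Ccn1 ran the other way from Ly6a across the states. It was highest in the Krt17 state (429 CPM in WT and 466 CPM in KO), then in the Clstn2 state (392 and 380) and the Fstl4 state (360 and 352), and it was lowest in the Saa1 state (64.7 and 53.8). Over 21 points, each 1 state in 1 library with 50 or more cells, Pearson's r of log2(CPM + 1) between Ly6a and Ccn1 was −0.78, and between Ly6a and Anxa1 it was 0.88. These are descriptions: the points share 2 libraries, and the states differ in depth and free RNA. No state differed beyond 1.5-fold in Ccn1, and its log2 ratios ran from −0.56 in the Gsdmc2 state to 0.25 in the Lyz1 and Zg16 states.

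The levels of both Ankrd1 and Amotl1 were highest in the Krt17 and Pnliprp2 states. Ankrd1 had 166 WT and 74 KO UMIs in the Krt17 state (18.7 and 9.35 CPM), 52.9% and 42% of its epithelial UMIs in 10.3% and 10.0% of the cells. The log2 ratio there was −1.0 (−1.41 to −0.59). In the Pnliprp2 state it had 71 and 14 UMIs (9.79 and 3.34 CPM), a log2 ratio of −1.55 (−2.49 to −0.71), although 1 WT cell alone held 23 of the 71. In the Fstl4 state it had 7 WT and 37 KO UMIs, and 1 KO cell held 28 of the 37. The Clstn2 state, with more cells, held 23 WT and 41 KO UMIs (2.13 and 2.39 CPM), of which 1 WT cell held 11 and 1 KO cell 20, and the Cadps state held 34 WT UMIs (2.06 CPM) and 1 KO UMI. In the other states of 50 or more cells Ankrd1 had at most 7 UMIs per library, with 0 in the Zg16 state of either library (up to 2.79 CPM in WT and 0.644 CPM in KO by the Poisson interval).

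Amotl1 had 46.9 CPM in WT and 35.3 CPM in KO in the Pnliprp2 state and 34.9 and 22.6 CPM in the Krt17 state, with log2 ratios of −0.41 (−0.70 to −0.13) and −0.63 (−0.90 to −0.36). The Cadps state held 398 of its 1396 WT UMIs (28.5%) and none of its KO UMIs, in 18 KO cells. Among the 8 compared states with 20 or more Amotl1 UMIs, 4 were higher and 4 lower in KO. The median log2 ratio of these states was −0.04, so the difference over all epithelial cells was not shared by most states. Only the Krt17 and Ube2c states were lower in KO beyond 1.5-fold with an interval that left out 0, the latter with 6.93 CPM in WT and 4.54 CPM in KO; the Gsdmc2 and Saa1 states were higher beyond 1.5-fold on few UMIs (19 WT and 22 KO, and 11 and 18), with intervals that held 0. The absorptive and goblet states had 1.40 to 4.54 CPM in both libraries. The pattern over the 21 points was most like that of Ankrd1 among the other members (Pearson's r 0.87), and r with Plat was 0.77.

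Markers of several other cell types were also highest in the Krt17 state. Summed pericyte or smooth muscle markers (6 of 6 detected in WT and 5 of 6 in KO) had 108 CPM in WT and 116 CPM in KO there, against 6.06 to 29.2 and 9.96 to 38.8 CPM in the other states of 50 or more cells. Summed endothelial markers (8 of 8) had 55.1 and 77.4 CPM, and summed monocyte or macrophage markers 742 and 802 CPM, against at most 618 and 574 CPM in the other states of that size. Fibroblast markers in that state, 4.27 and 27.3 CPM, were near their level over all epithelial cells (4.87 and 27.1 CPM). Lymphatic endothelial markers, a list that includes Prox1, which is also a leading gene of the Clstn2 state, were highest in the Pnliprp2 state (468 and 469 CPM). At resolution 1, Acta2 and Rgs5 of the pericyte list and Flt1 of the endothelial list were among the leading genes of the epithelial state led by Ly6g6c. Whether these sums come from the epithelial cells or from other cell types was not tested. The part of all these markers in the levels of Ankrd1 and Amotl1 was not tested. Endothelial cells held the highest Amotl1 of all classes (113 and 99.5 CPM) and 0 Ankrd1 UMIs, which with 42 WT and 68 KO cells allows up to 9.47 and 5.73 CPM by the Poisson interval.

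Ccn2 was sparse in every epithelial state. Its highest level was in the Saa1 state, with 57 WT and 71 KO UMIs (10.2 and 12.6 CPM), but 1 KO cell held 31 of the 71, and without that cell's UMIs the KO level would fall below that of the Gsdmc2 state. In the Gsdmc2 state it had 35 and 68 UMIs (3.51 and 9.05 CPM), a log2 ratio of 1.36 (0.76 to 2.0), and in the Fstl4 state 67 and 122 UMIs (3.92 and 6.87 CPM), a log2 ratio of 0.81 (0.37 to 1.26). In the other 5 states with 20 or more UMIs, the Saa1 state among them, the interval included 0.

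**Figure D2:**
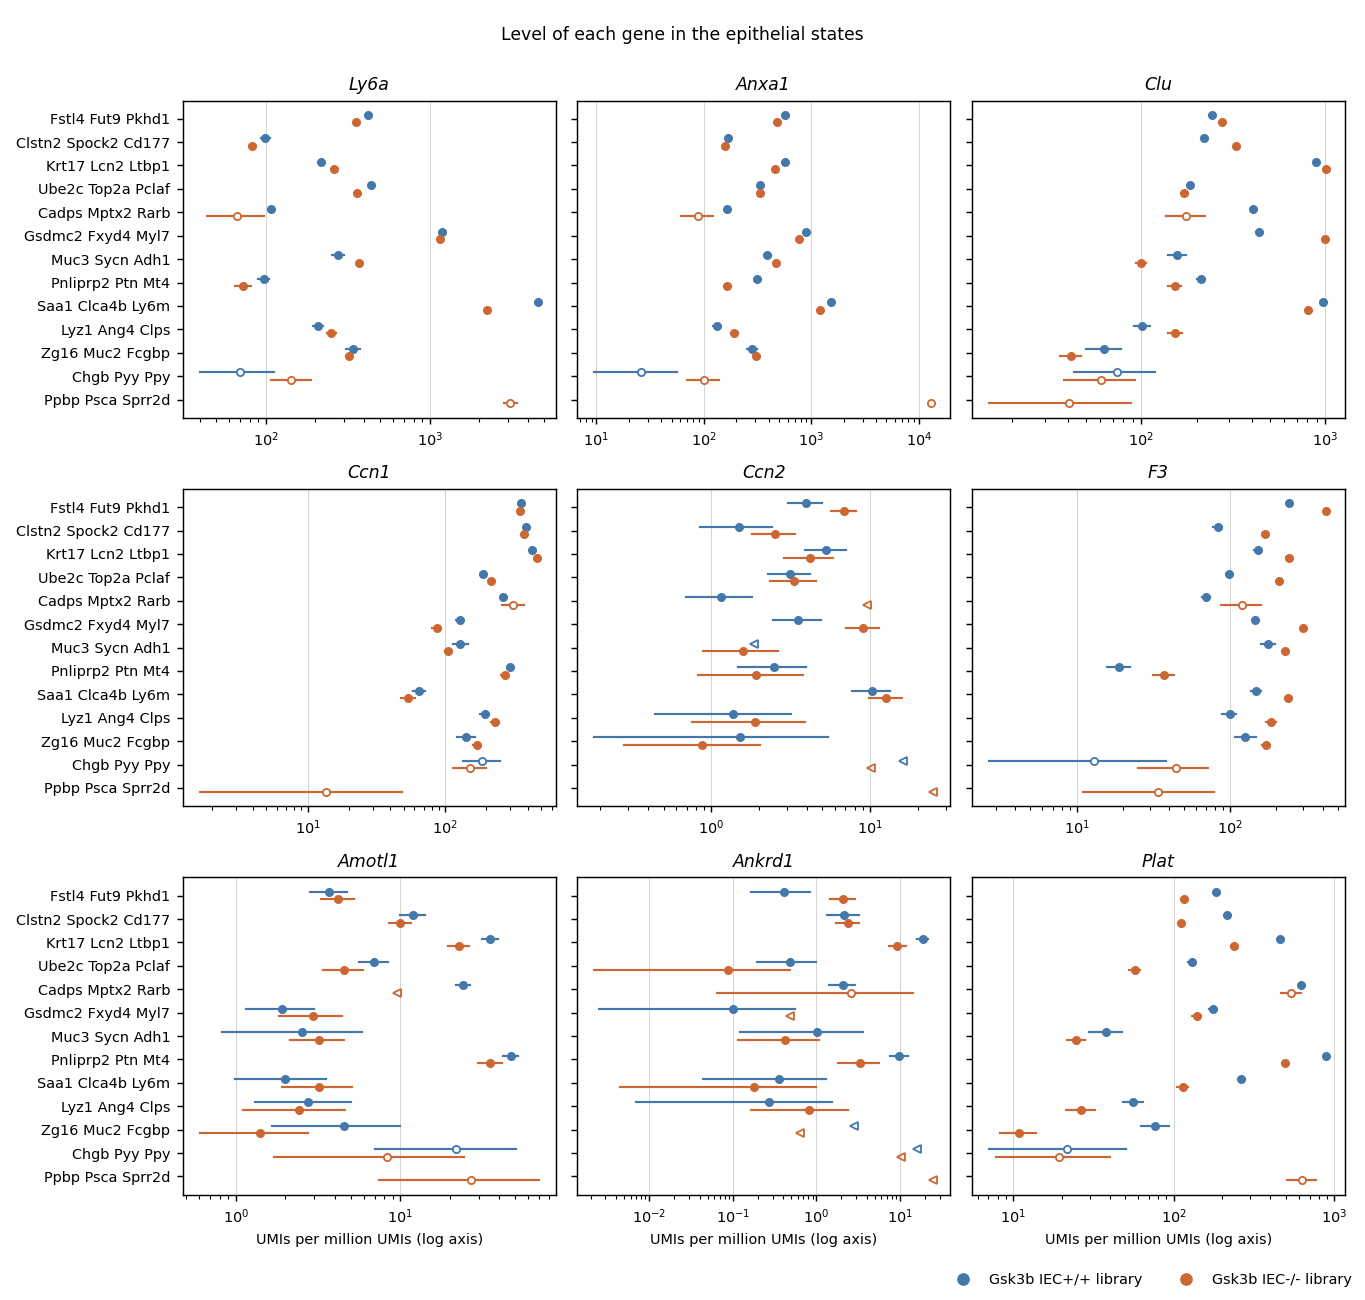
Level of each gene (x axis, CPM, log scale, its own range in each panel) in the 13 epithelial states (y axis, named by 3 leading genes) in the WT (blue) and KO (orange) library; points are levels, lines Poisson 95% intervals, open circles states under 50 cells in that library and open triangles the upper limit where no UMI was counted. Ly6a peaks in the Saa1 state (4566 CPM in WT), where Ccn1 is lowest (64.7 CPM), and the KO points of F3 lie above and those of Plat below the WT points in the 10 states with 50 or more cells in both libraries.

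F3 was higher in KO in all 10 compared states, by log2 ratios from 0.36 in the Muc3 state to 1.09 in the Ube2c state, and beyond 1.5-fold in 8. All 10 intervals left out 0. Of 10051 genes with enough UMIs in all 10 states, 2.92% were higher in KO in every one. In both libraries F3 was highest in the Fstl4 state (241 CPM in WT and 422 CPM in KO) and lowest in the Pnliprp2 state (18.8 and 37.0 CPM). The cycling Ube2c state had 98.4 and 209 CPM, the Clstn2 state 83.3 and 169 CPM, the Gsdmc2 state 145 and 300 CPM, and the Lyz1 state 99.1 and 184 CPM. The states at both ends of the order were thus the same in both libraries while the level differed. In WT the intervals of the Krt17, Saa1 and Gsdmc2 states overlapped, and in KO those of the Krt17 and Saa1 states. The 18 KO cells of the Cadps state had 119 CPM against 69.5 CPM in WT.

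Plat was lower in KO in all 10 compared states, beyond 1.5-fold in 9, and all 10 intervals left out 0; 5.27% of genes were lower in KO in every state. The log2 ratio was smallest in size in the Gsdmc2 state, −0.33 (175 and 139 CPM), and largest in the Zg16 goblet state, −2.82 (−3.30 to −2.35), with 101 WT and 62 KO UMIs (76.5 and 10.8 CPM), where 1 WT cell held 52 of the 101. Plat was highest in the Pnliprp2 state, at 886 CPM in WT and 492 CPM in KO, and its second-highest WT level was 617 CPM in the Cadps state. In the Krt17 state it had 461 and 238 CPM. Thus F3 and Plat stood at opposite ends in the Pnliprp2 state, where F3 was lowest and Plat highest in both libraries.

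Part of the Plat difference over the whole epithelium went with the numbers of cells per state. The Cadps state, with 564 WT and 18 KO cells, held 32.2% of WT Plat UMIs and 1.90% of KO ones. With the same state weights in both libraries the log2 ratio of Plat was −0.72 and that of F3 was 0.81, still beyond 1.5-fold in both cases. For Ly6a, leaving out states held almost wholly by 1 library moved the log2 ratio from −0.36 to −0.59, just beyond 1.5-fold.

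**Figure D3:**
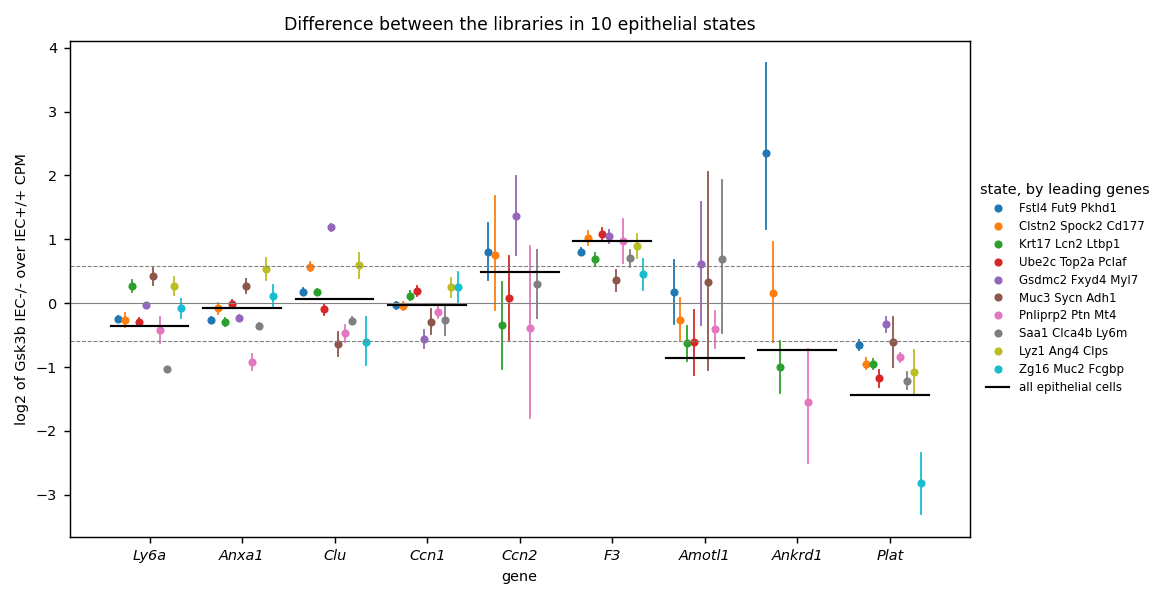
Log2 ratio of KO over WT CPM (y axis) for each gene (x axis) in the 10 states with 50 or more cells in both libraries (coloured points with 95% counting intervals, shown where a gene had 20 or more UMIs) and over all epithelial cells (black bars); dashed lines mark 1.5-fold. The points of F3 run from 0.36 to 1.09 and those of Plat from −2.82 to −0.33, while those of Clu lie on both sides, from −0.64 to 1.19.

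Joint detection within single cells was counted for each pair of the genes, and 3 pairs of the well-detected genes are given first. Thinned cells with both Ly6a and Anxa1 made up 42.1% of WT and 38.0% of KO cells of the states used, 1.06 times the product of the single shares within states in both libraries. For Anxa1 with F3 the ratio was 1.09 in WT and 1.07 in KO, and for Ly6a with Ccn1 0.97 and 0.95. Pairs with a sparse gene rested on few cells and ranged more widely: Ccn2 and F3 were seen together in 24 WT and 37 KO cells (ratios 1.29 and 1.27), Ccn1 and Ankrd1 in 21 and 14 cells (1.2 and 1.32), F3 and Ankrd1 in 11 and 11 cells (1.60 and 1.28), and Amotl1 and Ankrd1 in 4 and 4 cells (1.37 and 4.38).

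The genes whose levels followed each member most closely over the 21 points were named by Pearson's r among 6569 genes with a mean of 20 or more CPM. For Ly6a these were S100a10 (r 0.98), Stom and Capg, and for Anxa1 S100a14 (0.93), Krt8 and Ahnak. For Clu they were Ifngr2 (0.94), Lama3 and Cxcl16, for Ccn1 Ubald1 (0.96), Rsrc2 and Epc1, and for Ccn2 Abtb2 (0.91), Ywhaz and Lama3. Amotl1 came with Minpp1 (0.97), Maml2 and Fhod3, Ankrd1 with Btbd9 (0.93), Ndfip1 and Mapk8, F3 with Tle4 (0.90), Myo5b and Fam83g, and Plat with Bcl2l1 (0.94), Pid1 and Stx7. By Spearman's rho, 2 of the 3 genes were named again for Ly6a and Anxa1, 1 for Clu, Ccn1, Ccn2, F3 and Plat, and 0 for Amotl1 and Ankrd1, so the neighbours of the last 2 rest on the measure used. Lama3, a laminin chain of epithelial basement membranes, was named for both Clu and Ccn2.

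Outside the epithelium the members belonged to different cell classes. Ly6a was present in mast cells (1259.8 CPM in WT and 649 CPM in KO), endothelial cells (904 and 1041 CPM), fibroblasts (1202 and 913 CPM) and T or innate lymphoid cells (800 and 549 CPM), and low in macrophages (98.3 and 112 CPM). Empty droplets had 614 and 418 CPM of it. In T or innate lymphoid cells the log2 ratio of Ly6a was −0.54, under 1.5-fold. Anxa1 was high in fibroblasts (1273 and 984 CPM) and present in neutrophils (364 CPM in WT and 228 CPM in KO) and macrophages (168 and 257 CPM), with 313 and 311 CPM in empty droplets.

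The neutrophil and macrophage differences in Anxa1 pointed in opposite directions, with log2 ratios of −0.67 (−0.76 to −0.58) and 0.61 (0.52 to 0.71); 5.99% of genes were lower beyond 1.5-fold in KO neutrophils and 6.36% higher in KO macrophages. Different clusters made up the neutrophils of each library. The cluster led by Ngp, a granule gene of immature neutrophils, had 1001 WT and 150 KO cells and 527 and 424 CPM of Anxa1. The G0s2 cluster had 801 and 1474 cells and 252 and 268 CPM, and the Ccl3 cluster 331 and 1443 cells and 236 and 172 CPM. In macrophages both larger clusters were higher in KO, the Ccl24 cluster at 153 and 191 CPM and the Apoe cluster at 185 and 322 CPM.

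Ccn2 and Ccn1 were highest in fibroblasts. Fibroblasts (34 WT and 216 KO cells) had 698 and 356 CPM of Ccn2 and 855 and 669 CPM of Ccn1. Endothelial cells (42 and 68 cells) had 41.1 and 48.2 CPM of Ccn2 and 339 and 375 CPM of Ccn1. The KO library had more fibroblasts, and fibroblast markers in its empty droplets summed to 210 CPM against 57.7 CPM in WT. Ccn2 stood at 3.90 CPM in WT and 8.81 CPM in KO empty droplets, above its levels of 3.18 and 4.48 CPM in epithelial cells. With free RNA subtracted by the immunoglobulin estimate, and subject to its limits, the epithelial log2 ratio of Ccn2 was 0.26. With cells of any cluster that met the UMI and Epcam minimum it was 1.09. Amotl1 was highest in endothelial cells (113 and 99.5 CPM) and fibroblasts (59.2 and 67.1 CPM).

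F3 was also detected in neutrophils, at 81.0 CPM in WT and 107 CPM in KO, against 10.9 and 14.2 CPM in T or innate lymphoid cells and 78.8 and 160 CPM in empty droplets. Among neutrophil clusters it was highest in the Ccl3 cluster (169 and 134 CPM), above the level in that library's empty droplets in WT and below it in KO. Plat had 388 CPM in WT and 134 CPM in KO endothelial cells, a known source of the protease, but these are 42 and 68 cells and were not compared. In T or innate lymphoid cells, macrophages and neutrophils Plat had 27.6 to 31.1 CPM in WT and 12.1 to 14.0 CPM in KO, in the same order as in empty droplets (189 and 75.6 CPM).

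Shares of cells show the same background. Thinned to 1000 UMIs, Plat was detected in 19.8% of WT and 8.93% of KO cells of the epithelial class (median depths 21109 and 20030 UMIs) and in 3.31% and 1.62% of T or innate lymphoid cells (3511.5 and 3259.5 UMIs). F3 was detected in 10.6% and 18.0% of the former and 0.891% and 1.21% of the latter, Clu in 21.3% and 21.7% against 5.09% and 4.32%, and Ccn1 in 21.2% in both against 2.29% in both. Ccn2 was detected in 0.232% of WT epithelial cells (interval 0.106% to 0.441%), the same as in WT neutrophils (0.232%), and in 0.470% of KO epithelial cells. Whether the WT share is background was not tested. Ankrd1 was detected in 0.258% (0.124% to 0.474%) of WT and 0.157% (0.0575% to 0.341%) of KO epithelial cells. In T or innate lymphoid cells its shares were 0% and 0.135%. These shares rest on very few cells, too few to compare the 2 libraries.

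**Figure D4:**
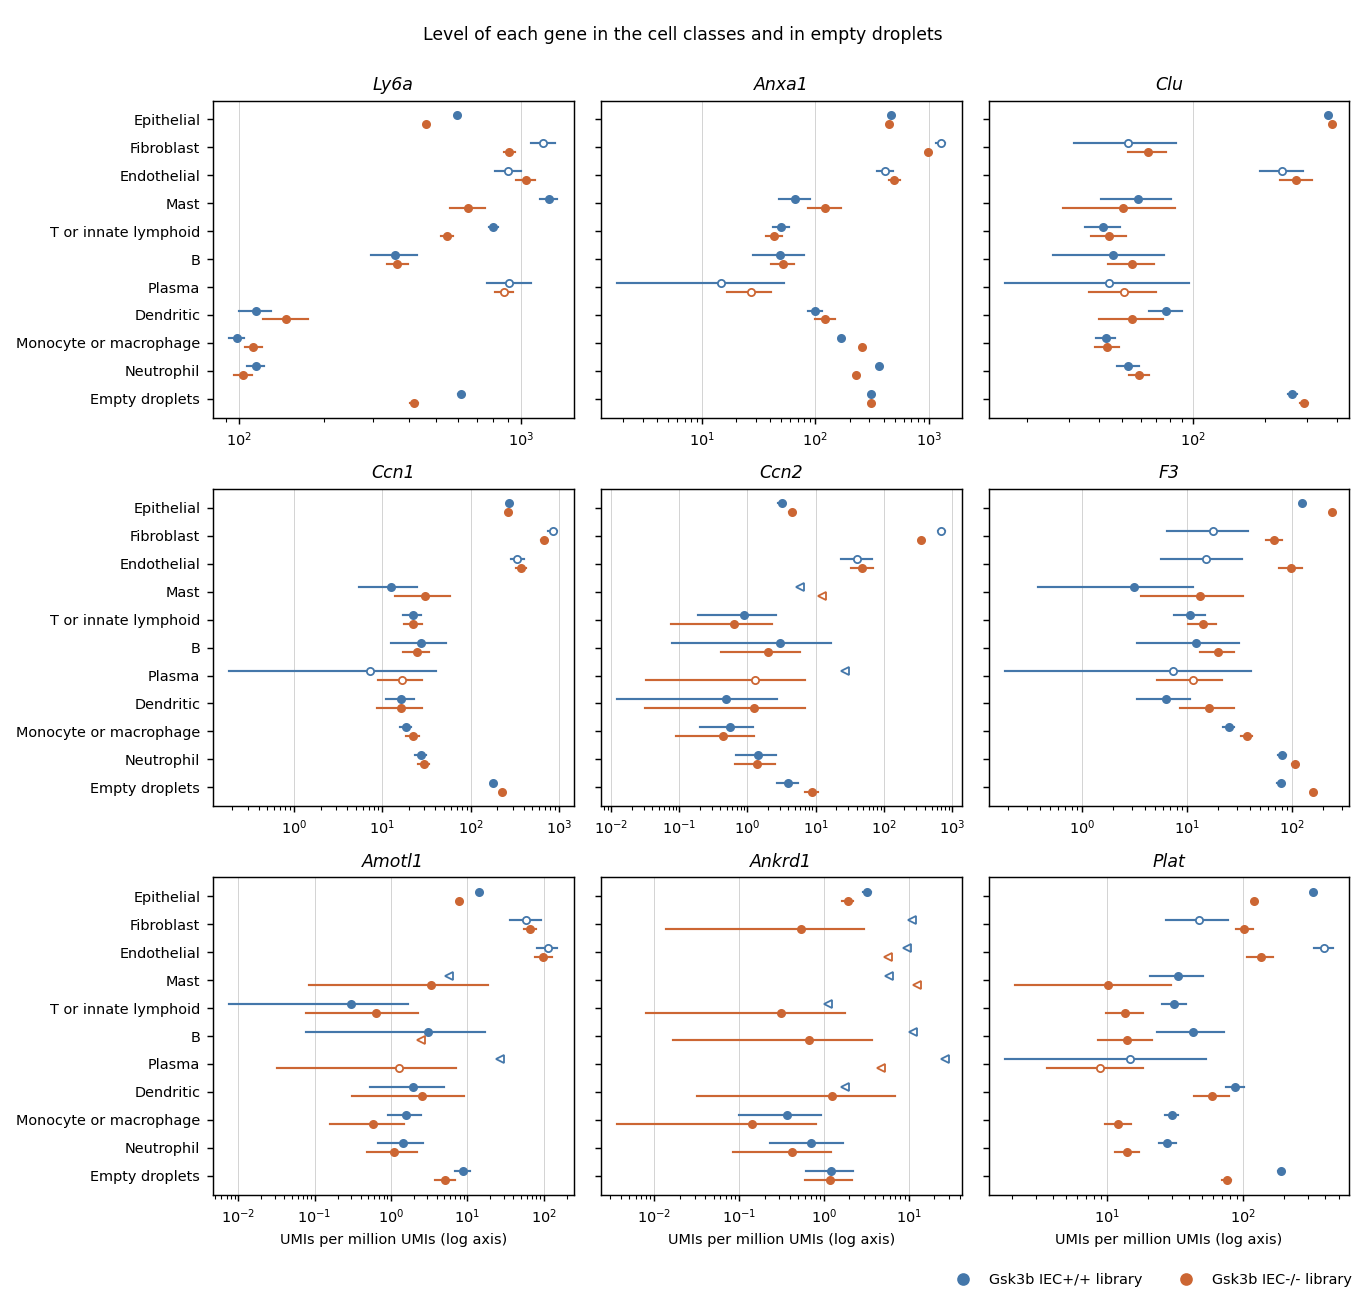
Level of each gene (x axis, CPM, log scale, its own range in each panel) in 10 cell classes and in empty droplets (y axis) in the WT (blue) and KO (orange) library; points are levels, lines Poisson 95% intervals, open circles classes under 50 cells in that library and open triangles upper limits where no UMI was counted. Fibroblasts carry the highest Ccn2 (698 and 356 CPM), Clu, F3 and Ankrd1 are highest in epithelial cells by level, and Plat is lower in KO than WT in empty droplets (189 and 75.6 CPM) as in epithelial cells.

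Other genes of the same pathways were taken from lists chosen by known role, and their counts are set against the 18.3% of all genes that differed beyond 1.5-fold (6.99% higher and 11.3% lower in KO). Of 17 further YAP/TAZ-TEAD targets with 20 or more UMIs, 1 was higher and 2 lower in KO beyond 1.5-fold, with a median log2 ratio of −0.15 (all genes −0.06), a share near that of all genes. Rbms3, an RNA-binding protein gene, had 430 CPM in WT and 235 CPM in KO (−0.87), Igfbp3, a binding protein of insulin-like growth factors, 4.6 and 2.95 CPM (−0.64), and Fjx1 0.573 and 0.908 CPM (0.66). With the same state weights in both libraries 0 of the 17 differed beyond 1.5-fold. Of 25 Hippo pathway components, 0 differed beyond 1.5-fold (median −0.08); the co-activator genes Yap1 (85.9 and 88.2 CPM) and Wwtr1, which encodes TAZ (152 and 125 CPM), were among them, as were the 4 TEAD genes.

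Across states the YAP/TAZ-TEAD targets spread over several states. In WT, 5 of 16 genes with 100 or more UMIs in these states were highest in the Krt17 state (31.2%, against 11.5% of all genes), 4 in the Pnliprp2 state (25%, against 16.7%) and 3 in the Saa1 state (18.8%, against 11.1%). In KO these counts were 3, 4 and 5 of 16. Amotl2 (23.4 CPM in WT and 18.6 CPM in KO) and Arhgef17 (21.5 and 22.1 CPM) were highest in the Krt17 state in both libraries, as Ccn1 and Ankrd1 were, while Nt5e (365.5 and 276 CPM) and Dock5 (132 and 129 CPM) were highest in the Saa1 state in both, as Ly6a and Ccn2 were; these 4 were picked after their values were seen. Among 27 regenerative genes, 9 in WT and 11 in KO were highest in the Krt17 state and 10 and 11 in the Saa1 state, against 11.5% and 13.8% of all genes for the former and 11.1% and 13.3% for the latter. Of 24 Hippo pathway components, 10 in WT (41.7%) and 8 in KO (33.3%) were highest in the Krt17 state. Of 13 plasminogen and coagulation genes, 6 in each library were highest in the Saa1 state (46.2%). The lists were not separate sets. Anxa2 and S100a10 were in both the regenerative and the plasminogen and coagulation lists. Amotl2, Lats2 and Ptpn14 were in both the YAP/TAZ-TEAD and the Hippo lists.

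Of these 27 regenerative or fetal-like genes, 2 were higher and 2 lower in KO beyond 1.5-fold (median −0.03), again near the 18.3% of all genes. Gja1, which encodes connexin 43, had 2.97 CPM in WT and 8.68 CPM in KO (log2 ratio 1.55), and Sprr1a, a cornified envelope protein gene, 57.6 and 98.6 CPM (0.77), which became 0.68 without the 11 cells of the Ppbp state. Il33, the alarmin interleukin-33, had 54.4 and 29.3 CPM (−0.89) and Msln, mesothelin, 6.60 and 2.65 CPM (−1.32). Of 16 plasminogen and coagulation genes, 1 was higher and 2 lower, also near the share of all genes. These were F2r, the thrombin receptor (1.05 and 1.87 CPM, 0.83), Tfpi, the inhibitor of the tissue factor pathway (10.0 and 3.74 CPM, −1.42), and Tfpi2 (3.23 and 2.12 CPM, −0.60). In WT, Tfpi was highest in the Cadps state (27.9 CPM), which holds 564 WT and 18 KO cells, and its ratio within states was not computed.

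Immediate-early genes, which tissue dissociation is known to raise, were level, with 0 of 15 beyond 1.5-fold (median 0.01). Across WT states their sum, like Ccn1, was highest in the Krt17 state (19905 CPM), with 19866 CPM in the Pnliprp2, 19809.6 in the Clstn2 and 19396 in the Fstl4 state, and it was low in the Saa1 (13789.8) and Ube2c (13264) states. In KO the sum was highest in the Pnliprp2 state, at 22119 CPM against 19965 CPM in the Krt17 state. Ccn1 in KO was still highest in the Krt17 state. Of the 15 immediate-early genes, 10 were highest in the Pnliprp2 state in KO (66.7%, against 18.7% of all genes). Their part in the state pattern of Ccn1 was not tested. Of the heat-shock genes, 4 of 9 were lower in KO beyond 1.5-fold and 0 higher (median −0.56), with Hspb1 at 716 CPM in WT and 209 CPM in KO, Hspa1b at 412 and 142 CPM, Hspa1a at 240 and 97.3 CPM and Hsph1 at 198 and 85.2 CPM. Their part in the differences of the 9 genes was not tested.

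**Figure D5:**
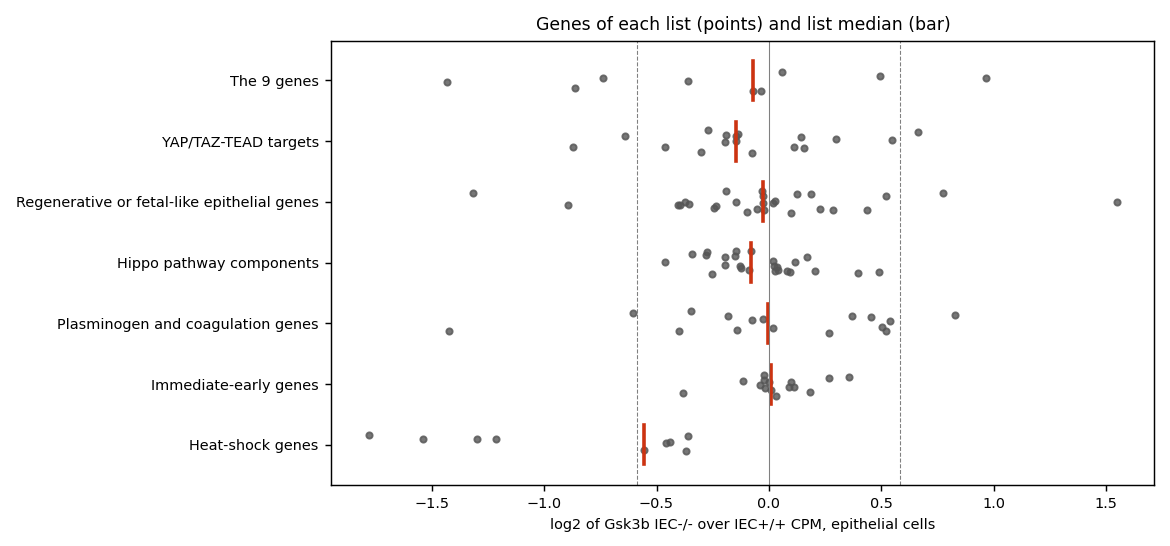
Log2 ratio of KO over WT CPM in epithelial cells (x axis) for the 9 genes and the genes of 6 lists (rows; points are genes with 20 or more UMIs, spread vertically at random, red bars list medians); dashed lines mark 1.5-fold. Hippo pathway components and immediate-early genes all lie within 1.5-fold, and the median of heat-shock genes is −0.56.

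Gsk3b itself had 265 CPM in WT and 243 CPM in KO epithelial cells, a log2 ratio of −0.12 (−0.15 to −0.10), and 167 to 309 CPM in the 10 compared states of WT and 126 to 307 CPM in those of KO. Because 3′ UMIs can come from a transcript that lacks an internal exon, these values do not check the labelled deletion. Markers of other cell types in epithelial cells were below their empty-droplet sums for fibroblasts (4.87 and 27.1 CPM against 57.7 and 210 CPM) and neutrophils (937 and 657 CPM against 8330 and 5547 CPM), and above them for lymphatic endothelial markers (219 and 189 CPM against 128 and 133 CPM).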

How the data were processed

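Both matrices hold UMI counts as deposited, whole numbers written by Cell Ranger 4.0 per the file headers, and they list empty droplets as well as cells. The build mm10 and Seurat are named in the submitters' processing notes; the annotation release was not given in the sources used here. Depth was 164574326 UMIs over 2446729 barcodes in WT and 156641780 UMIs over 2457921 barcodes in KO. A barcode from 500 UMIs up counted as a cell if it passed a test against free RNA (10000 Monte Carlo draws, FDR 0.001), and any barcode past 8744 (WT) or 8186 (KO) UMIs did so untested, which gave 12259 WT and 13140 KO cells. Cells with fewer than 200 genes or more than 25% of UMIs from mitochondria were dropped. The highest Scrublet doublet scores went next (936 and 1083 cells, at 0.8% per 1000 cells), leaving 9879 and 10550 cells.

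Clustering used 2000 variable genes, 30 principal components, 15 neighbours and Leiden resolution 1 for classes and 0.6 for epithelial states, the latter without the members and list genes among the variable genes. Clusters were named from marker lists, at 3 or more markers detected in 25% of cells and 2-fold above the 25th percentile of clusters. Ratios were taken in states with at least 50, and classes with at least 100, cells per library. UMIs were summed per library. Levels carry exact Poisson intervals, ratios exact conditional binomial intervals and shares of cells Clopper-Pearson intervals, all at 95%. Only the ratio intervals over all epithelial cells were tried on simulated data. Those data were Poisson counts without spread between cells, so they do not cover genes whose UMIs sit in few cells. With 1 library per genotype no replicate check exists.

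The members, gene lists, markers and rules were chosen with earlier results of these data known. Named are all 9 members, Gsk3b, for each member the 3 genes most like it by Pearson's r of log2(CPM + 1), and up to 4 genes of each list beyond 1.5-fold with the most UMIs. Clustering and doublet scores ran in scanpy 1.11.5 with scikit-learn 1.9.0, leidenalg 0.10.2 and igraph 0.11.9, statistics in scipy 1.17.1 and statsmodels 0.14.6, and plots in matplotlib 3.10.9, under Python 3.11.15 with pandas 2.3.3 and numpy 2.4.6. Alternatives to the calling, filters, scaling, cell selection, free RNA, state weights, clustering and likeness measure are given at the end.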

Additional observations from a re-analysis of the deposited data

Results flagged for a closer look

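For 3 of the genes the libraries differed beyond 1.5-fold in opposite directions in different cells, with counting intervals on opposite sides of 0; whether the differences themselves differ was not tested, since each value rests on 1 library per genotype. Clu had a log2 ratio of KO over WT of 1.19 (1.13 to 1.24) in the Gsdmc2 state, where absorptive markers lead, and −0.64 (−0.83 to −0.45) in the unnamed Muc3 state. Ankrd1 had 2.35 (1.16 to 3.76) in the Fstl4 state, on 7 WT and 37 KO UMIs of which 1 KO cell held 28, and −1.55 (−2.49 to −0.71) in the Pnliprp2 state, on 71 and 14 UMIs. Anxa1 had 0.61 (0.52 to 0.71) in monocytes or macrophages and −0.67 (−0.76 to −0.58) in neutrophils, the latter made up of different clusters in the 2 libraries.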

How the results depend on the processing

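No paired analysis was possible because each genotype has 1 library, and for the same reason no library could be left out. Of 13 alternatives, 1 of them (without the 11 cells of the Ppbp state) chosen after seeing the data, all 13 kept F3 (log2 0.81 to 1.02), Plat (−1.47 to −0.72) and Amotl1 (−0.87 to −0.59) beyond 1.5-fold in the same direction, and 10 kept Ankrd1 (−0.85 to −0.17). For Amotl1, the setting with the same state weights kept the Cadps state, where 18 KO cells held 0 Amotl1 UMIs. Within compared states Amotl1 had no common direction, with 4 higher and 4 lower in KO. Ly6a (−0.59 to −0.28) and Ccn2 (0.26 to 1.09) passed 1.5-fold in 1 each and kept their sign in all 13, as did Anxa1 (−0.31 to −0.01). Clu (−0.04 to 0.16) and Ccn1 (−0.10 to 0.03), both near 0, kept their sign in 11 and 10. F3 was higher and Plat lower in KO in 100% of states under each of 6 alternatives, with 7 to 14 states compared. The genes beyond 1.5-fold were 1866 with a minimum of 100 UMIs and 6233 with 3 UMIs, against 3372, by construction of the minimum; members beyond it were 3 to 5. YAP/TAZ-TEAD targets beyond 1.5-fold were 0 with the same state weights, 1 without doublet removal and by the mean over cells, and 5 with cells of any cluster, against 3. Plasminogen and coagulation genes were 5 with the same state weights and 6 with cells of any cluster, against 3, and Hippo components 2 with cells of any cluster, against 0; the causes were not tested. The highest state held other cells at another resolution for Clu, Ccn1, Ccn2, F3 and Ankrd1; at resolution 1 that of Clu in WT (1913 CPM) shared 0% of its cells with the Saa1 state. Ccn2 and Ankrd1 rest on 57 to 192 positive cells per library.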
